A study of Mus musculus with 8 samples.

Results

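The peaks that the authors called with an antibody against EBF2 and with an antibody against H3K27ac were compared in the same cells, differentiated brown adipocytes (BAC) carrying the empty vector (Vec). All peaks on chromosomes 1 to 19 in the 4 Vec lists were taken, which gave 1874 members of 2739 peaks on all chromosomes in these lists and 5650 in the 8 lists of the series. EBF2 Vec replicate 1 gave 440 of the members, EBF2 Vec replicate 2 gave 306, H3K27ac Vec replicate 1 gave 661 and H3K27ac Vec replicate 2 gave 467.

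By the labels these libraries are of genotype WT and cell line BAC-V, and the tissue of origin is brown adipose tissue. According to the methods of the study the preadipocytes came from newborn *Cars2* flox/flox mice, were made immortal by SV40 large T antigen, and received the vector without Cre as precursor cells. The labels call the cells preadipocytes, while the protocol differentiates them with insulin, T3, dexamethasone, indomethacin and IBMX before harvest. Each library was made from 50000 cells, and the libraries of both antibodies come from what the labels describe as a single immortalized line. For Cut & Tag the sources do not say whether replicates were separate cultures, so any p-value measures only the spread between these libraries, which may be technical. Because the cells were pooled, the share of cells with a mark and its level per cell cannot be told apart.

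EBF2 is a DNA-binding factor of the early B-cell factor family and is known for opening the regulatory regions of brown fat genes together with PPARγ. H3K27ac is the acetylated lysine of histone H3 that marks active promoters and enhancers, and at promoters it lies in short stretches beside transcription start sites, where the DNA is often rich in CpG. In Cut & Tag the antibody carries a transposase to the chromatin it binds, and the DNA cut there is sequenced. A peak is a stretch where the peak caller found more fragments than its background, and the width of a peak is used here to separate short sites (2 kb or less), intermediate sites (2 to 10 kb) and long stretches (over 10 kb).

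The promoters below carry the contrast that the lists show, and they were chosen after their values were seen. They are the 250 bases before a RefSeq start of the gene (GRCm38.p6), 5′ to 3′, with every CpG in capitals. *Caprin1* (RNA-binding protein of stress granules, chr2:103797079-103797328, minus strand), *Slc22a5* (carnitine transporter, chr11:53891704-53891953, minus strand) and *Hdlbp* (RNA-binding protein vigilin, chr1:93478918-93479167, minus strand) lie under short peaks of both H3K27ac lists and of neither EBF2 list. *Acot1* (acyl-CoA thioesterase, chr12:84009252-84009501, plus strand) lies under such a peak as well and is shown as an example with little CpG. Starts of *Zfp932* under such a peak hold little CpG too. *Cyp3a41a* (cytochrome P450, chr5:145720137-145720386, minus strand) is the gene at a region that both EBF2 lists and neither H3K27ac list hold.
Caprin1: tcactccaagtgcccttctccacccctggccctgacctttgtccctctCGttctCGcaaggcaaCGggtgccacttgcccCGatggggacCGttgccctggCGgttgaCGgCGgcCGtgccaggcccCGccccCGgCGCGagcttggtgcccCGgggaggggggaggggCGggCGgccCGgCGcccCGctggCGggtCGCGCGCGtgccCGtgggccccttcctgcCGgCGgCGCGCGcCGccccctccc
Slc22a5: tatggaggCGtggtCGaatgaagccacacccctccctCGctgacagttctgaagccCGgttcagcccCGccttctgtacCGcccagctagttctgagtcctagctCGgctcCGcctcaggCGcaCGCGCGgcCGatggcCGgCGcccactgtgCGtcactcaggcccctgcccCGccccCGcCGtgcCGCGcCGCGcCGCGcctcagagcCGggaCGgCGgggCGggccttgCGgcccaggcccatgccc
Hdlbp: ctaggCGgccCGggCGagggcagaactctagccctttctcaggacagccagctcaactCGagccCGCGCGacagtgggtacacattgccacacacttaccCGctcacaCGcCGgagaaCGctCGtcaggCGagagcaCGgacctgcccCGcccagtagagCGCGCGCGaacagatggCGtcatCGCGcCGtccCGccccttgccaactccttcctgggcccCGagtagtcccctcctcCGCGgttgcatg
Acot1: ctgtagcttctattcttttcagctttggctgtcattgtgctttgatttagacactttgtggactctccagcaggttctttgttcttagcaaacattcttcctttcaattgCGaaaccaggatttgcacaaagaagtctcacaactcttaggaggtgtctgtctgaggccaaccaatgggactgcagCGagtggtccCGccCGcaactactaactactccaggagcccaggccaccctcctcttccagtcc
Cyp3a41a: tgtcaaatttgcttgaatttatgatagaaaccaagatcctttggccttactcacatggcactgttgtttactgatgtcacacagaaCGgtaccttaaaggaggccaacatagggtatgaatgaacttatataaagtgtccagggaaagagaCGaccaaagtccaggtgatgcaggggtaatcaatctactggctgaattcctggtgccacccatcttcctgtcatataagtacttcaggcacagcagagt
These stretches hold 31 CpG for *Caprin1*, 30 for *Slc22a5*, 27 for *Hdlbp*, 4 for *Acot1* and 2 for *Cyp3a41a*. In these examples the H3K27ac promoters range from CpG-rich to CpG-poor, and the EBF2 example is CpG-poor.

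The lists differ in more than the antibody. The EBF2 lists are in the narrow layout of MACS2 and the H3K27ac lists in its broad layout, and the smallest −log10 q-value listed was 1.35 and 1.33 for EBF2 but 1.07 and 1.10 for H3K27ac. The lists hold no read counts, so the depth is unknown. The background coverage, which grows with depth and was recovered from the fold and p-value of weak peaks, was 7.38 and 1.39 pileup units in EBF2 replicates 1 and 2 and 18.8 and 9.41 in H3K27ac replicates 1 and 2. The recovered value was higher in both H3K27ac libraries, and lowest by far in EBF2 replicate 2. Fold and p-value are summit values for EBF2 and means over the peak for H3K27ac. Its comparison across the antibodies is therefore uncertain. Antibody and layout cannot be told apart in these lists.

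The first question was whether the antibodies give peaks of different width. H3K27ac replicate 1 held 252 peaks of 2 kb or less, H3K27ac replicate 2 held 86, EBF2 replicate 1 held 114 and EBF2 replicate 2 held 68. The H3K27ac lists lay on both sides of EBF2 replicate 1, and the groups overlapped. As a share of the list these were 25.9% and 22.2% for EBF2 and 38.1% and 18.4% for H3K27ac. The means were 24.1% ± 2.61 and 28.3% ± 13.9 (SD, n = 2 each), which did not differ beyond the spread between replicates (difference of −4.20 percentage points, p = 1 by an exact permutation test, two-sided). With 2 libraries against 2 this test has 6 arrangements and cannot give a p below 0.33. The difference turned positive, to 5.65 points, without H3K27ac replicate 1.

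Peaks of 2 to 10 kb numbered 142 and 108 in the EBF2 lists and 160 and 146 in the H3K27ac lists. Their share was 32.3% and 35.3% for EBF2 and 24.2% and 31.3% for H3K27ac, so both EBF2 lists lay above both H3K27ac lists. The difference of 6.05 points had the smallest p the exact permutation test allows (0.33), and was 2.52 points without H3K27ac replicate 1. Peaks over 10 kb numbered 184 and 130 for EBF2 and 249 and 235 for H3K27ac. Their share was 41.8% and 42.5% for EBF2 and 37.7% and 50.3% for H3K27ac (difference of −1.84 points, exact permutation p = 1), and the EBF2 values fell between those of H3K27ac.

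Peaks over 10 kb took up nearly all of the listed length with both antibodies. They made up 98.4% and 98.7% of the length in the EBF2 lists, of 46.7 and 37.7 Mb, and 98.0% and 98.3% in the H3K27ac lists, of 52.1 and 49.1 Mb. The smallest peaks were 1024 and 1323 bp wide for EBF2 and 964 and 1015 bp for H3K27ac, so that no list held a site much below 1 kb. At the limits between classes the widths ran on, with peaks of 1996 and 2010 bp on either side of 2 kb and of 9832 and 10024 bp on either side of 10 kb in EBF2 replicate 1.

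**Figure D1:**
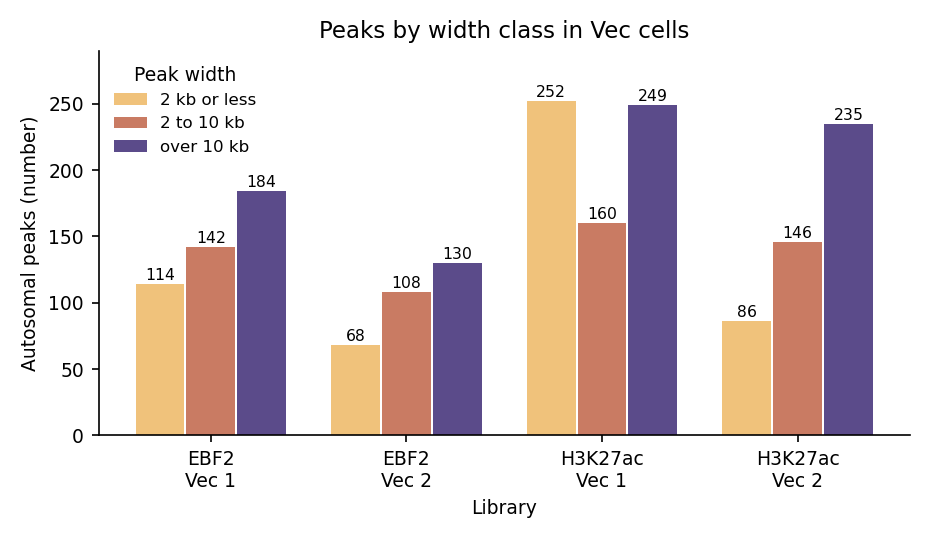
Number of autosomal peaks (vertical axis) by library and width class in Vec cells, 1 bar per class. H3K27ac Vec 1 has 252 peaks of 2 kb or less, against 86 in H3K27ac Vec 2 and 114 and 68 in the EBF2 lists.

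The lists of the 2 antibodies differed in where their short peaks lie. Of the peaks of 2 kb or less, 170 of 252 (67.5%, 95% interval 61.3 to 73.2) in H3K27ac replicate 1 and 33 of 86 (38.4%, 28.1 to 49.5) in H3K27ac replicate 2 were within 3 kb of a protein-coding gene end, at either side of the gene. In EBF2 replicate 1 this held for 27 of 114 (23.7%, 16.2 to 32.6) and in EBF2 replicate 2 for 9 of 68 (13.2%, 6.23 to 23.6). Both EBF2 lists lay below both H3K27ac lists. The intervals are exact binomial (Clopper-Pearson) and cover counting error only. For scale, 8.29% of the autosomal span lies within 3 kb of such an end. The means were 18.5% ± 7.39 for EBF2 and 52.9% ± 20.6 for H3K27ac (SD, n = 2 each), a difference of −34.5 points with p = 0.33 by the exact permutation test, two-sided, the smallest it allows. Without H3K27ac replicate 1 the difference was −19.9 points, and with 1 q-value threshold for all lists it was −38.7 points.

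The 4 shares stood in the same order as the recovered background coverages, whose comparison across the antibodies is uncertain. At the nearest coverages, 7.38 in EBF2 replicate 1 and 9.41 in H3K27ac replicate 2, the intervals of 16.2 to 32.6 and 28.1 to 49.5 overlapped. The Cre lists (*Cars2* knockout), where the coverage was 8.26 and 8.76 for EBF2 and 9.66 and 9.91 for H3K27ac, gave 9.62% and 11.1% for EBF2 and 44.6% and 64.6% for H3K27ac. The H3K27ac pair itself lay apart there, at coverages close to each other. The part of coverage in these differences was not tested. For EBF2 Cre replicate 1 the origin rests on its label, since its peaks are named after an adiponectin-Cre knockout.

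In the other width classes the difference had the opposite sign. Of the peaks of 2 to 10 kb, 19.7% and 18.5% were at a gene end for EBF2 and 13.1% and 16.4% for H3K27ac (difference of 4.34 points, exact permutation p = 0.33). Of the peaks over 10 kb, 67.9% and 72.3% were at a gene end for EBF2 and 61.0% and 59.6% for H3K27ac (difference of 9.81 points, exact permutation p = 0.33). Here EBF2 was the higher antibody in both classes, without overlap between the groups. In the Cre lists the groups overlapped, at 20.6% and 14.7% for EBF2 and 13.9% and 17.4% for H3K27ac in the first class (1.99 points) and at 67.4% and 62.9% against 63.2% and 62.8% in the second (2.18 points). With only the peaks of at least the median score of each list these differences were −0.64 and −0.73 points, and with distances taken from the midpoint of the peak that over 10 kb was −2.44 points, so their direction depended on these settings.

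**Figure D2:**
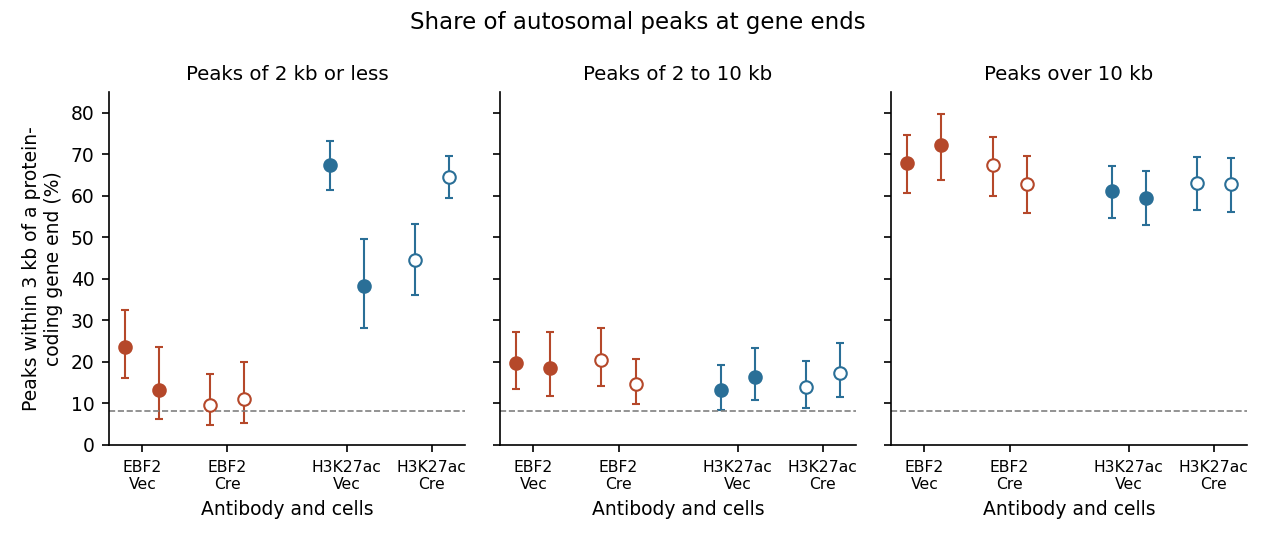
Share of autosomal peaks at most 3 kb from a protein-coding gene end (vertical axis, %), 1 panel per width class and 1 point per library, with 95% exact binomial intervals. Filled points are Vec, open points Cre, replicate 1 is left of replicate 2, and the dashed line is the 8.29% of the autosomal span that lies within 3 kb of an end. In the left panel EBF2 lies at 9.62% to 23.7% and H3K27ac at 38.4% to 67.5%.

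The distance itself showed the same contrast. The median peak of 2 kb or less lay 0.0285 kb from the nearest gene end in H3K27ac replicate 1, 7.37 kb in H3K27ac replicate 2, 13.5 kb in EBF2 replicate 1 and 18.7 kb in EBF2 replicate 2. Measured to starts alone, on the autosomes other than chromosome 18, the midpoint was within 1 kb of a start for 147 of 243 peaks (60.5%) in H3K27ac replicate 1 and 23 of 84 (27.4%) in H3K27ac replicate 2. For EBF2 this was 7 of 108 (6.48%) in replicate 1 and 2 of 68 (2.94%) in replicate 2. Of those within 3 kb of a start, the median midpoint was 62.5 and 113 bp downstream in H3K27ac replicates 1 and 2.

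**Figure D3:**
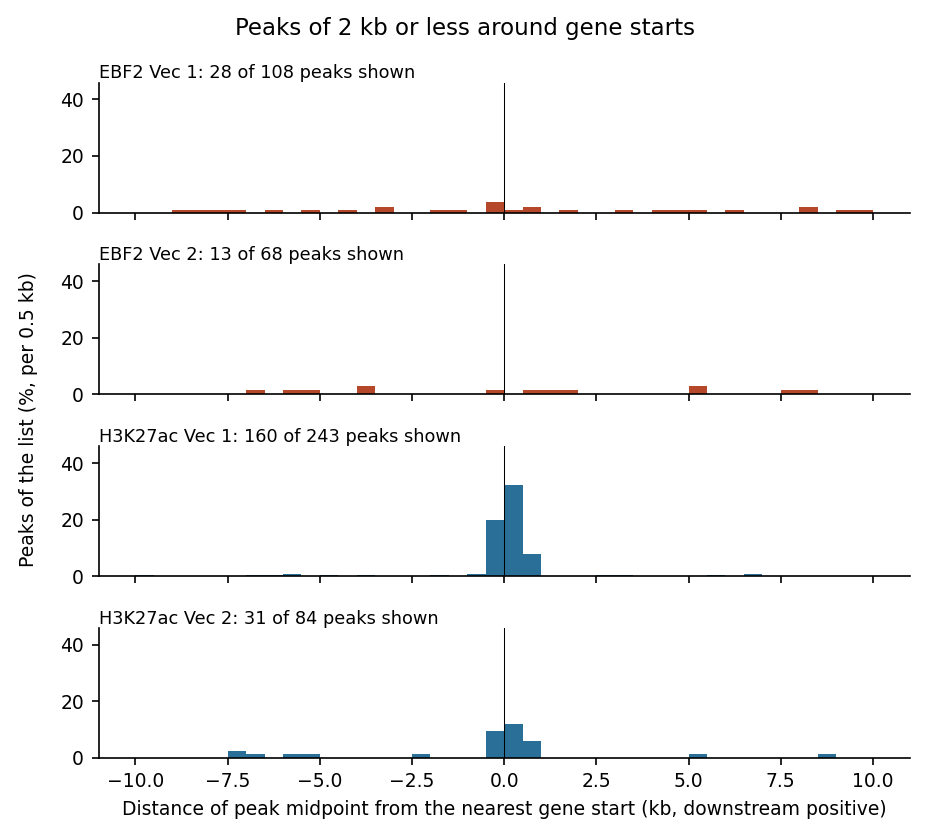
Distance from the midpoint of each peak of 2 kb or less to the nearest RefSeq gene start (horizontal axis, kb, downstream positive), as a percentage of the peaks of each Vec list per 0.5 kb. The H3K27ac peaks gather within 1 kb of the start (60.5% and 27.4%), and a smaller share of the EBF2 peaks lies there (6.48% and 2.94%).

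The short peaks of each antibody were then classed by the widest peak of the other that overlapped them. Of the 114 in EBF2 replicate 1, 68 (59.6%) were overlapped by a peak over 10 kb of H3K27ac replicate 1 and 51 (44.7%) by one of H3K27ac replicate 2. No peak overlapped 30 (26.3%) and 50 (43.9%) of them. Of the 68 in EBF2 replicate 2, 54 (79.4%) and 55 (80.9%) were under a peak over 10 kb and 12 (17.6%) and 11 (16.2%) under none. For 7 (6.14%) of the short peaks of EBF2 replicate 1 the widest overlapping peak was itself short, with either H3K27ac list, and this held for none of those of EBF2 replicate 2. In the opposite direction, 4 of 252 (1.59%) short peaks of H3K27ac replicate 1 were overlapped by a peak over 10 kb of EBF2 replicate 1, and 9 of 86 (10.5%) of H3K27ac replicate 2. Against EBF2 replicate 2 these were 4 (1.59%) and 3 (3.49%).

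The replicates of an antibody shared few short sites. A short peak of EBF2 replicate 2 was matched by a short peak of EBF2 replicate 1 in 1 case of 68, and by a peak over 10 kb in 48 (70.6%). Of the 114 short peaks of EBF2 replicate 1, 104 (91.2%) had no peak of EBF2 replicate 2 over them. For H3K27ac, 33 of the 86 short peaks of replicate 2 (38.4%) matched a short peak of replicate 1, and 24 (27.9%) lay under a peak over 10 kb. Seen from the larger list, 33 of 252 (13.1%) short peaks of H3K27ac replicate 1 matched a short peak of replicate 2, and 207 (82.1%) had no peak of replicate 2 over them. The short H3K27ac peaks at gene ends were also farther from long peaks than those elsewhere. Of those at a gene end 11.2% and 21.2% were within 50 kb of a peak over 10 kb of their own list, against 25.6% and 37.7% of the others. For EBF2 the order was the opposite, 55.6% and 44.4% of the short peaks at a gene end against 49.4% and 39.0% of the others, with few peaks at gene ends.

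The short peaks were weak with both antibodies. The median fold over the caller's background was 2.15 and 2.93 for EBF2 and 1.61 and 1.92 for H3K27ac, and these values are not comparable across lists, since the fold needed to pass a threshold falls with coverage and the broad layout gives means over the peak. Within the H3K27ac lists, the peaks at gene ends had the lower median fold, 1.57 against 1.66 in replicate 1 and 1.68 against 1.94 in replicate 2.

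Counted by gene, 224 protein-coding genes had a short H3K27ac peak within 3 kb of an end in replicate 1 and 43 in replicate 2, against 28 and 8 for EBF2. The groups did not overlap, and the mean log2 ratio of EBF2 over H3K27ac was −2.71 (exact permutation p = 0.33). It was −1.52 without H3K27ac replicate 1, −3.90 without H3K27ac replicate 2, −3.62 without EBF2 replicate 1 and −1.81 without EBF2 replicate 2. Both H3K27ac lists held 24 genes, which is 0.116% of the 20661 autosomal protein-coding genes, and both EBF2 lists held 0. Either H3K27ac list held 243 genes and either EBF2 list 36, and 5 genes were in both sets, which are 2.06% of the former and 13.9% of the latter. These 5 were *H4c14* (histone H4), *H2-Q4* (class I histocompatibility antigen), *Eppk1* (epiplakin, a keratin-binding protein), *Catspere2* (sperm cation channel) and *Gm6034*. Of all autosomal protein-coding genes, 1.24% and 0.353% were at an H3K27ac peak of 10 kb or less in replicates 1 and 2. The 13.9% lay above both shares, but it counts peaks of 2 kb or less in either list. The shares count peaks of 10 kb or less in 1 list each, so they are not matched to it. The overlap was not tested.

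The other short EBF2 peaks at gene ends were at *Hfe*, a regulator of iron uptake, *Hspa1b*, an inducible heat shock protein, *Slfn8*, *Ces2c*, a carboxylesterase, *Ceacam2*, *Bbs9*, a component of the ciliary BBSome, *Dop1b* and *Zfp990* in EBF2 replicate 1, and at *Gsdmc2*, a gasdermin, *Nat8f6*, *Olfr55* and *Olfr118*, odorant receptors, in EBF2 replicate 2, among others. No such gene was in both EBF2 lists. Some may belong to families with close copies, between which reads may not be told apart, but such genes were not counted. Of all genes at an EBF2 peak of 10 kb or less, 15 of 55 (27.3%) in replicate 1 and 11 of 27 (40.7%) in replicate 2 carry a provisional name of Gm and a number. For H3K27ac these were 10 of 256 (3.91%) and 12 of 73 (16.4%), and among all autosomal protein-coding genes 4.67%. In the Cre lists the shares were 12.2% and 18.9% for EBF2 and 6.93% and 3.16% for H3K27ac. Such names are no measure of close copies.

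To find what each antibody held alone, the peaks of the 4 lists were merged into 740 regions wherever they shared at least 1 bp. Of these, 426 were in 1 list, 107 in 2 lists, 73 in 3 lists and 134 in all 4 lists. Both H3K27ac lists and neither EBF2 list held 86 regions (11.6%), and both EBF2 lists and neither H3K27ac list held 2 (0.27%). H3K27ac replicate 1 alone held 313 regions, of which 202 were of 2 kb or less and 146 of those at a gene end. H3K27ac replicate 2 alone held 57, EBF2 replicate 1 alone 43 and EBF2 replicate 2 alone 13. With equal numbers of best-scoring peaks from each list, the 86 and 2 regions became 24 and 7. A further 65 regions were in both H3K27ac lists and EBF2 replicate 1, but not in EBF2 replicate 2, whose coverage was the lowest. Without EBF2 replicate 1 the H3K27ac class held 152 regions, without H3K27ac replicate 1 it held 189 and without H3K27ac replicate 2 it held 413. These counts have no test.

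**Figure D4:**
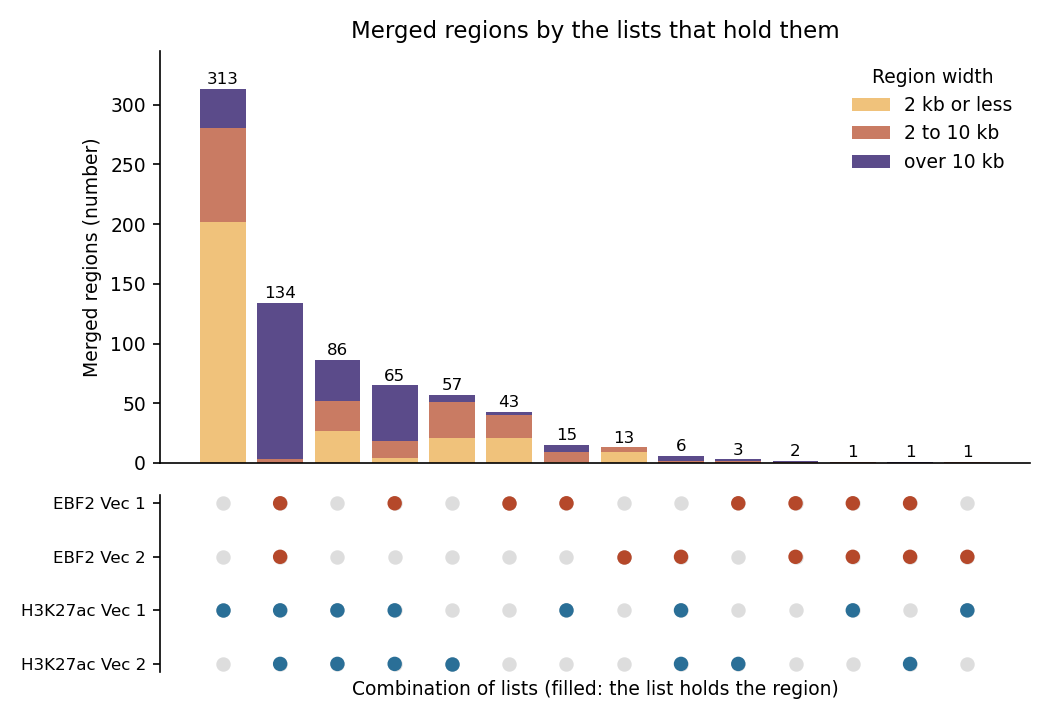
Number of merged autosomal regions (upper panel, coloured by width) for each combination of the 4 Vec lists that hold them (lower panel, filled points). The 134 regions of all 4 lists are almost all over 10 kb, the 86 regions of both H3K27ac lists alone are of every width, and 2 regions are in both EBF2 lists alone.

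The 86 H3K27ac regions without EBF2 were of all widths, 27 of 2 kb or less, 25 of 2 to 10 kb and 34 over 10 kb. At a gene end were 17 (62.96%), 5 (20.0%) and 13 (38.2%) of them, against 63.2%, 17.0% and 60.7% of all merged regions of these widths. The shorter classes were therefore near the share of all regions and the widest was below it. The 134 regions of all 4 lists included none of 2 kb or less, 3 of 2 to 10 kb and 131 over 10 kb, of which 101 (77.1%) were at a gene end, and they covered 46.8 Mb. Of the 52 H3K27ac regions of 10 kb or less, 40 (76.9%) were also in at least 1 Cre H3K27ac list, 24 (46.2%) in both, and 12 (23.1%) in at least 1 Cre EBF2 list. Of all 473 merged regions of 10 kb or less these were 232 (49.0%), 85 (17.97%) and 90 (19.03%), so that the share in Cre EBF2 lists was near that of all. The 52 were taken for being in both Vec H3K27ac lists, a rule that the 473 did not have to meet. Nothing is therefore read from their higher shares in the Cre H3K27ac lists.

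Of the H3K27ac regions of 10 kb or less, the one with the best mean rank of score, at chr2:98662610-98667010, lay 1031 kb from the nearest gene end, that of *Lrrc4c*. Its folds were 1.97 and 1.94 in H3K27ac replicates 1 and 2. Its sequence was not read, so whether it holds repeats, where reads can pile up, was not tested. The next was at *Ppp4r3b*, a regulatory subunit of protein phosphatase 4 (chr11:29172504-29173555, folds 2.13 and 2.03), which no Cre list held. The region near *Zfp958* lay 45.0 kb from that gene. *Casp8*, the initiator caspase of death receptor signalling (chr1:58795063-58796251, folds 2.11 and 2.24), followed, and then *Ube3a*, a ubiquitin ligase (chr7:59228380-59229583, 1.82 and 1.83). *Hdlbp* and its neighbour *Septin2*, a cytoskeletal GTPase, shared the region that followed (chr1:93478149-93479388, 1.498 and 1.635). The list ended with *H3c6*, a histone H3 gene (chr13:23560811-23565757, 1.81 and 1.96), and a region 202.4 kb from *Lama2*. Thus 5 of the 8 best-ranked regions were at a gene end and 3 were far from any.

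The other H3K27ac regions of 10 kb or less at gene ends were named after their values were seen. They included *Caprin1* (chr2:103796333-103797885, folds 1.35 and 1.53), *Gspt1*, a translation termination factor (chr16:11253327-11254455, 1.44 and 1.44), and *Pde12*, a phosphodiesterase of mitochondrial RNA (chr14:26668602-26669909, 1.42 and 1.45). *Rnf4*, a ubiquitin ligase for SUMO-modified proteins, had folds of 1.51 and 1.61 (chr5:34335795-34337061), and *Rev3l*, the catalytic subunit of DNA polymerase zeta, had 1.38 and 1.497 (chr10:39731855-39733018). Also there were *Slc22a5* (chr11:53891058-53892226, 1.52 and 1.65), *Acot1* (chr12:84009227-84010301, 1.84 and 2.28), *Ugt3a1*, a glycosyltransferase (chr15:9316449-9318523, 1.67 and 1.92), *Atp6v1a*, a subunit of the vacuolar proton pump that shares its region with *Naa50* (chr16:44138845-44140520, 1.30 and 1.40), and *Slc30a7*, a zinc transporter beside *Extl2* (chr3:116007021-116008125, 1.64 and 1.67). *Zbtb20* and *Zfp932*, zinc finger factors, had folds of 1.47 and 1.43 (chr16:42874876-42876270) and of 1.94 and 2.24 (chr5:109996197-109997316). The folds of all these were small, from 1.30 to 2.28. Their presence in both replicates is the rule that defines the class and is no support for them.

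Some of these regions lie in gene families with near-identical copies, where the counting of reads may split them. A region of 8.01 kb took in *Hba-a1*, *Hba-a2* and *Hbq1b*, globin genes (chr11:32286685-32294696, folds 1.67 and 1.93), and no Cre list held it. A region of 6.73 kb took in *H1f3* and *H4c6* (chr13:23549898-23556627, 1.37 and 1.60). Together with *H3c6* these are replication-dependent histone genes, and EBF2 Cre replicate 1 and both Cre H3K27ac lists held both histone regions. The widest H3K27ac region without EBF2 was 137.7 kb wide and 4.24 kb from *Sdc2*, a syndecan (chr15:32778778-32916485), with folds of 2.713 and 2.004, and all 4 Cre lists held it.

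The 2 EBF2 regions without H3K27ac were unlike each other. The first spanned 6.76 kb at *Cyp3a41a* (chr5:145717493-145724251), 6759 bp of it in EBF2 replicate 1 (fold 2.39) and 2191 bp in EBF2 replicate 2 (fold 2.93), and no Cre list held it. *Cyp3a41a* has a near-identical copy, *Cyp3a41b*, so its identity is uncertain. The second (chr12:115447692-115466836) was 19.1 kb wide in EBF2 replicate 1 (fold 2.39) and 2712 bp in EBF2 replicate 2 (fold 3.35), lay 580.9 kb from the nearest end of a protein-coding gene in the table, that of *Zfp386*, but inside *Igh*, the immunoglobulin heavy chain locus, which is not counted as protein-coding, and was in both Cre EBF2 lists and neither Cre H3K27ac list. The count rose to 57 without EBF2 replicate 2, to 16 without EBF2 replicate 1, to 4 without H3K27ac replicate 2 and to 3 without H3K27ac replicate 1.

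The 3 regions of 10 kb or less in all 4 lists lay away from gene ends. The best-ranked was 16.2 kb from *Wdfy1*, inside that gene (chr1:79718508-79728034), with folds of 4.18 and 4.19 for EBF2 and 2.43 and 2.31 for H3K27ac, and all 4 Cre lists held it. The others were 22.8 kb from *4931417E11Rik* (chr6:73441523-73445810) and 10.7 kb from *Plekhg6* (chr6:125392293-125395699). The widest regions of all 4 lists were 4639.8 kb of Gm-numbered genes on chromosome 14 and 3150.2 kb of *Vmn1r* pheromone receptor genes on chromosome 7. Their folds were 39.8 and 33.9 for EBF2 and 18.1 and 18.7 for H3K27ac in the first, and 36.3 and 19.3 against 10.1 and 9.67 in the second. The Jaccard index, the shared length divided by the length in either list, was 0.764 for the EBF2 pair, 0.882 for the H3K27ac pair, and 0.834 and 0.864 for EBF2 replicate 1 and 0.689 and 0.730 for EBF2 replicate 2 with H3K27ac replicates 1 and 2.

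Gene lists of brown fat and of other cell types were then set against the peaks of 10 kb or less. In EBF2 replicates 1 and 2, 0.266% and 0.131% of the autosomal protein-coding genes had an end within 3 kb of such a peak, and in H3K27ac replicates 1 and 2 1.24% and 0.353%. For peaks over 10 kb the same shares were 3.36% and 2.62% for EBF2 and 3.79% and 3.63% for H3K27ac. None of 39 thermogenic genes and none of 46 adipocyte genes was at such a peak in any Vec list, and none was at a peak over 10 kb. At these background shares a list of that size would hold less than 1 gene at the shorter peaks and between 1 and 2 at those over 10 kb. The markers of muscle (12 genes), macrophages (10), neurons (9) and endothelium (8) were also at none, so the labelled cell type could not be checked from its markers. The 12 genes the study turns on (*Adrb1*, *Cars2*, *Cidea*, *Cidec*, *Dio2*, *Ebf2*, *Elovl3*, *Elovl6*, *Pparg*, *Ppargc1a*, *Prdm16* and *Ucp1*) had no peak of any Vec list within 50 kb, and the nearest was 205.8 kb away. *Ucp1*, the uncoupling protein of brown fat, was therefore at no H3K27ac peak of these lists. In its figures the study reports EBF2 binding by Cut & Tag at *Cars2*, *Ucp1* and *Cidec*. It also reports binding of overexpressed EBF2 by ChIP-qPCR at *Cars2* and *Ucp1*. The lists hold called peaks and no read signal, so the absence of a peak does not show the absence of signal.

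Few housekeeping, ribosomal protein and oxidative phosphorylation genes were at a peak of 10 kb or less in any Vec list. H3K27ac replicate 1 held 4 of 95 genes of oxidative phosphorylation (4.21%), *Cycs* (cytochrome c), *Ndufb3* and *Ndufaf5* (a subunit and an assembly factor of complex I) and *Atp5l* (a subunit of ATP synthase), against 1.24% of all genes in that list. It also held 1 of 28 housekeeping genes, *Ncl* (nucleolin), and 0 of 84 ribosomal protein genes. H3K27ac replicate 2 held 1 of 84 ribosomal protein genes, *Rps27a*, and none of the others, and the EBF2 lists held none. At the shares of all genes in these 3 lists, 0.353%, 0.266% and 0.131%, the gene lists together would hold less than 1 gene, so nothing is read from 1, 0 and 0. No gene of these lists was in both H3K27ac lists.

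Histone genes and *Zfp* (zinc finger) genes were counted in the same way. Of 66 replication-dependent histone genes, 4 (6.06%) and 0 were at an EBF2 peak of 10 kb or less and 6 (9.09%) and 4 (6.06%) at an H3K27ac peak. All genes were at such a peak in 0.266% and 0.131% of cases for EBF2 and in 1.24% and 0.353% for H3K27ac. In the Cre lists the order turned at peaks of 10 kb or less. There 8 (12.1%) and 7 (10.6%) histone genes were found for EBF2 and 1 (1.52%) and 1 (1.52%) for H3K27ac. The shares of all genes there were 0.198% and 0.179% for EBF2 and 0.489% and 1.53% for H3K27ac. *H4c14* was in EBF2 replicate 1 and both H3K27ac lists, while *H2ac6*, *H2bc4* and *H4c11* were in EBF2 replicate 1 and *H2bc3* and *H3c3* in H3K27ac replicate 1, each at a peak of 10 kb or less in no other Vec list. At peaks over 10 kb were 22 (33.3%) and 3 (4.55%) histone genes for EBF2 and 29 (43.9%) and 33 (50%) for H3K27ac. The share of EBF2 replicate 2 was near the 2.62% of all genes, and the other shares were well above theirs. In the Cre lists 31 (47.0%) and 26 (39.4%) histone genes were at peaks over 10 kb for EBF2. For H3K27ac these were 38 (57.6%) and 38 (57.6%), so at this width H3K27ac held more in Cre as in Vec. The shares of all genes were 3.42% and 3.38% for Cre EBF2 and 3.66% and 3.67% for Cre H3K27ac. Of 360 *Zfp* genes, 2 (0.556%) and 0 were at an EBF2 peak of 10 kb or less and 10 (2.78%) and 4 (1.11%) at an H3K27ac peak, so that the EBF2 counts were near the share of all genes. *Zfp932* was in both H3K27ac lists, and *Zfp947* and *Zfp990* were in EBF2 replicate 1. At peaks over 10 kb, 22 (6.11%) and 21 (5.83%) *Zfp* genes were found for EBF2 and 30 (8.33%) and 28 (7.78%) for H3K27ac. These shares were above those of all genes, 3.36% and 2.62% for EBF2 and 3.79% and 3.63% for H3K27ac. At peaks over 10 kb, 81 (23.0%) and 64 (18.2%) of 352 vomeronasal receptor genes were found for EBF2 and 85 (24.1%) and 79 (22.4%) for H3K27ac, above the share of all genes in each list.

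The promoters at the peaks differed in their CpG number, a feature that played no part in the choice of members. A window of 300 bases, from 250 before to 50 after a RefSeq start, was read for 16456 genes (20084 windows) on the autosomes other than chromosome 18. The windows overlapped by a peak of 10 kb or less had a median of 4 CpG in EBF2 replicate 1 (20 windows) and 2 in EBF2 replicate 2 (7 windows), against 23 in H3K27ac replicate 1 (226 windows) and 22 in H3K27ac replicate 2 (48 windows). Over all windows the median was 14. At least 10 CpG were found in 20.0% and 14.3% of the EBF2 windows and in 86.7% and 70.8% of the H3K27ac windows, against 57.9% of all. In the Cre lists the medians were 5 and 7 for EBF2 and 23 and 24 for H3K27ac, so that each of the 4 EBF2 lists lay below the median of all windows and each of the 4 H3K27ac lists above it. Windows under peaks over 10 kb had a median of 3 CpG in all 4 Vec lists. The number of EBF2 windows is small, and no test was made.

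**Figure D5:**
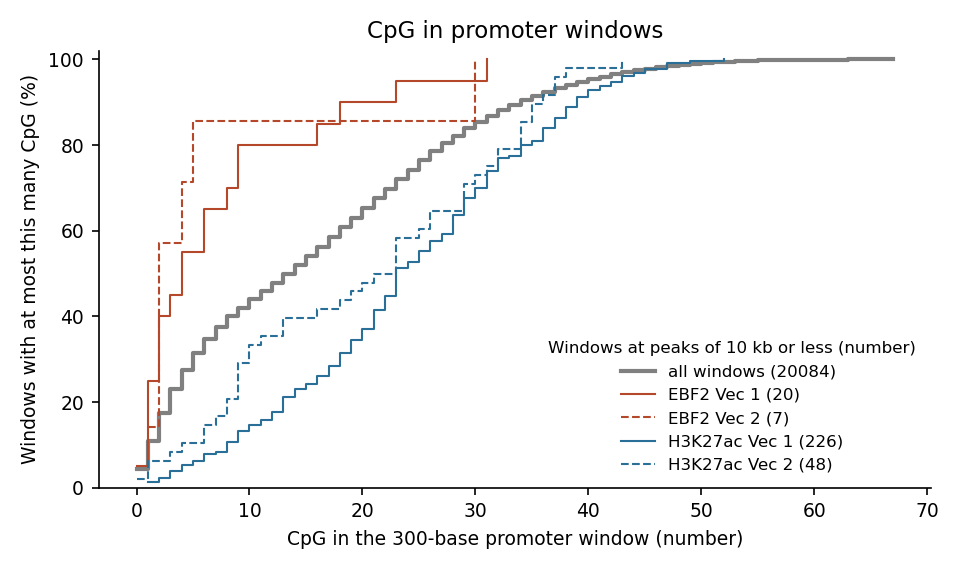
Cumulative share of promoter windows (vertical axis, %) by the number of CpG in the window (horizontal axis), for windows overlapped by a peak of 10 kb or less in each Vec list and for all windows, with the number of windows in brackets. The EBF2 curves rise early, with medians of 4 and 2, and the H3K27ac curves late, with medians of 23 and 22, on either side of all windows (14).

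The same windows were searched for the core letters of the EBF motif, TCCCNNGGGA, a palindrome that reads alike on both strands. They were in 0 of 20 and 0 of 7 windows at EBF2 peaks of 10 kb or less, in 4 of 226 (1.77%) and 1 of 48 (2.08%) at H3K27ac peaks, and in 0.981% of all windows. The shorter CCCNNGGG, which every longer match contains, was in 1 of 20 (5.00%) and 0 of 7 at EBF2 peaks, in 19.9% and 14.6% at H3K27ac peaks and in 16.0% of all. At the share over all windows, 20 windows would hold less than 1 long match, so nothing is read from its absence. The long core in both H3K27ac lists was at another start of *Hdlbp* than the one printed above (chr1:93478343-93478372, minus strand), and its core, shown in capitals, begins 15 bases after that start.
Hdlbp core: gtggtgcctgTCCCTGGGGAcgtggccttc
No EBF2 list held a peak there.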

How the data were processed

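EBF2 and H3K27ac were profiled by Cut & Tag in 2 Vec libraries each, and the Cre libraries were used for values side by side. The submitters' processing notes name bcl2fastq 2.17, Trimmomatic 0.33, HISAT2 2.2.1, MACS2 2.2.7 and the build mm10. Control library, filters, duplicates and caller settings are not given in the sources used here. The authors deposited 1 peak list per library, called on that library alone, with a score (−log10 q-value times 10), a fold (ratio to the local background), the −log10 p-value and the −log10 q-value, at the summit for EBF2 and as means over the peak for H3K27ac. The other deposited column of the EBF2 lists, the summit offset, was not used.

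Groups were taken from the labels. Peaks on chromosomes 1 to 19 were classed by width, and distances were measured to both ends of protein-coding genes in the RefSeq table of GRCm38.p6, which has no strand. Starts came from the RefSeq promoter table, whose windows on chromosome 18 are not used here. Background coverage is the 10th percentile of the value b that solves fold and p-value, over peaks with a −log10 p-value under 15. The exact permutation test, two-sided, was run on the mean share, or the mean log2 of a number, per library. Regions were merged at an overlap of 1 bp and have no test.

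Named were the 8 regions of 10 kb or less that rank best by mean score percentile and the 5 widest of each class (of which the text gives the widest), members of the gene lists, and 12 genes of the study. The members, the gene lists, all written from general knowledge, and the rules were chosen with earlier results of these data known. Alternatives were a score of at least the median, all chromosomes, peaks merged within 500 bp, equal numbers of peaks, other width limits, windows of 1 and 10 kb, all annotated genes, midpoints, at least 0.5 of the merged region covered, either list, a replicate block and leaving out each library. A common q threshold and gene starts were added after seeing the data. The functions were tested on simulated lists. Python 3.11.15, scipy 1.17.1, numpy 2.4.6, matplotlib 3.10.9 and pandas 2.3.3 were used.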

Additional observations from a re-analysis of the deposited data

How the results depend on the processing

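The share of peaks of 2 kb or less at a gene end was lower for EBF2 in all 15 alternatives run, between −49.0 and −19.9 percentage points, and so was the number of genes at such peaks (15 alternatives, log2 ratio −3.90 to −1.52). The share of peaks of 2 to 10 kb stayed higher for EBF2 in all 11 (2.52 to 16.8 points). With only peaks of at least the median score, 3 differences turned: the share over 10 kb became 8.67 points, and the gene-end share −0.64 points for 2 to 10 kb and −0.73 points over 10 kb. With all chromosomes the share of 2 kb or less became 1.60 points, and with distances from the midpoint the gene-end share over 10 kb became −2.44 points. The cause was not tested. Regions of both EBF2 and neither H3K27ac list, 2 as reported, were 6 at the median score, 7 with equal numbers of peaks, 1 when 0.5 of the region had to be covered and 58 when either list counted. Regions of both H3K27ac and neither EBF2 list, 86 as reported, were 33, 24 and 456 at the median score, with equal numbers and with either list. Regions of all 4 lists, 134 as reported, were 202 on all chromosomes, 89 with 0.5 of the region and 226 with either list.

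Leaving out each library in turn gave −14.1 to 5.65 points for the share of 2 kb or less, 2.52 to 9.58 for 2 to 10 kb and −8.17 to 4.48 over 10 kb, where the sign turned without H3K27ac replicate 1 and without H3K27ac replicate 2, respectively. It gave −49.0 to −19.9 points, 2.68 to 5.99 and 7.63 to 11.998 for the gene-end shares of the 3 classes. The log2 ratio of the number of short peaks was −1.52 to 0.0339, the sign turning without H3K27ac replicate 1, that of genes −3.90 to −1.52. Regions of EBF2 alone numbered 3 to 57, of H3K27ac alone 92 to 413 and of every remaining list 135 to 201. The replicate numbers are shared between the antibodies and nothing says that they mark a pair. With a replicate block the gene-end difference is the same −34.5 points, with 0.5 as the smallest p an exact permutation test within 2 pairs allows, and no call could change. With 2 libraries a group the exact permutation test cannot give a p below 0.33, so it could call no difference of any size. With unknown depth, a difference below the spread between replicates would not be seen in the values either.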

Other observations

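Starts of 2 genes on opposite strands lay under 32 of 252 short H3K27ac peaks in replicate 1 and 4 of 86 in replicate 2. Of the short peaks that overlapped a promoter window, these were 32 of 141 (22.7%) and 4 of 19 (21.1%). Examples are the pairs *Hdlbp* and *Septin2* or *Extl2* and *Slc30a7*. Of the H3K27ac regions of 10 kb or less without EBF2 that overlapped a window, 5 of 19 (26.3%) overlapped windows on both strands. For short EBF2 peaks that overlapped a window, the counts were 0 of 8 and 0 of 2. Among all genes with a window, 9.92% have a start of another gene on the opposite strand within 1 kb. That share is counted by gene and the others by peak, so they are given side by side with no test.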
